A study of Brassica juncea with 4 samples.

Results

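The new candidate small RNAs described here are the sequences of 23 or 24 nt among those that the study predicted from hairpins and named PC, with 5p or 3p for the arm and a running number. Members were taken by name and length alone, and 42 sequences fit, 32 of 24 nt and 10 of 23 nt. They stand beside 50 new candidates of other lengths and belong to 248 distinct sequences in 288 listed entries of the series.

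Floral buds of Brassica juncea were compared between a cytoplasmic male-sterile line (CMS) and its maintainer fertile line (MF), both flowering in long days. The cytoplasm of the CMS line came from Brassica rapa through a cross to fertile B. juncea and repeated backcrosses to it, so that both lines share a largely B. juncea nucleus. Each line gave 1 small RNA library and 1 degradome library from pooled plants, 4 libraries in all. With 1 library per line and assay, every ratio and test below compares 2 libraries and not the lines, and every interval covers counting error only. The tables hold small RNAs and cleavage sites, so the bud identity of the samples was not checked against marker genes.

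In plants, miRNAs are cut from hairpin precursors by a Dicer-like enzyme as a duplex with short 3′ overhangs, most often at 21 nt. Small RNAs of 24 nt come mainly from long double-stranded RNA made at transposons and repeats, are cut by DCL3, and guide DNA methylation through AGO4 and its relatives, which favour a 5′ A. Some miRNA hairpins also give such long products, and hairpin prediction from single reads can pick up pieces of tRNA, rRNA or inverted repeats. CMS is a failure of pollen production set by mitochondrial genes, and organelle places are therefore shown separately below.

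The most abundant candidates are printed first, because most reads lie in them. PC-5p-71 is added as the candidate with the most reads in 1 library and none in the other. Bases 2 to 8, which pair first with a target (the seed), are in capitals, and letters are DNA letters as deposited.
PC-3p-77: gCGATTTGtctggttaattccgtt
PC-5p-55: aCAGGTGGtggaacaaatatgagt
PC-3p-5: aGTGGTAAgtattcccgcctgtca
PC-5p-1: gCCCGTATagctcagtggtagagc
PC-5p-47: gTCTGGGTggtgtagtcggttatc
PC-3p-25: tGTGGGCTtagacgtagataccc
PC-3p-46: cACACACTagaggtccccggttc
PC-5p-89: cAAACTCCcgcaaccgcaaccgca
PC-5p-71: tGAGGTATtctaaaatatctcttt
The 42 candidates had 41 distinct seeds. Only PC-5p-47 and PC-5p-63 had the same seed, since PC-5p-63 is PC-5p-47 without its last base.

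Together the 42 candidates took up 458 raw reads of the MF library and 225 of the CMS library, from 7331757 and 3192676 mappable reads (reads left after the study's filters). Set against 1000000 mappable reads (RPM), their sum was 62.5 RPM in MF and 70.5 RPM in CMS. Of all reads listed for miRNAs, they made up 0.504% in MF and 0.214% in CMS. Reads were very unevenly spread. PC-3p-77 alone held 48.5% of the reads of these candidates in MF and 37.3% in CMS, the 8 candidates with at least 10 reads over both libraries held 85.4%, 20 candidates had 2 to 9 reads, and 14 had a single read, 9 of them in MF and 5 in CMS. The median was 3 reads a candidate, against 2 reads for new candidates of other lengths and 7.5 for all distinct sequences.

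**Figure D1:**
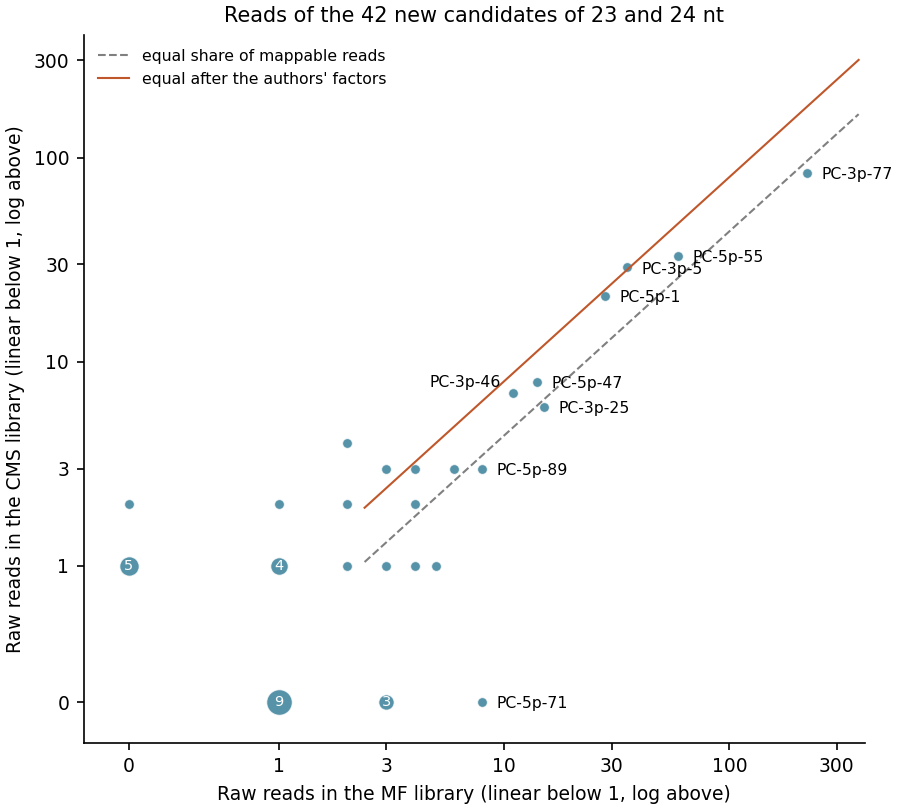
Raw reads of the 42 new candidates of 23 and 24 nt in the MF library (x axis) and the CMS library (y axis), on axes that are linear below 1 and logarithmic above. Larger points marked with a number stand for that many candidates with the same counts, and the lines mark equal levels after the authors' factors (solid) or per mappable read (dashed). PC-3p-77, with 222 and 84 reads, lies below both lines, and most candidates lie at 0 to 4 reads.

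Of the 42 candidates, 36 were detected in MF and 29 in CMS, 23 of them in both, 13 in MF alone and 6 in CMS alone. The share found in both libraries was 54.8%, against 38% of the 50 new candidates of other lengths, 28.6% of the 21 other entries of 23 to 24 nt, and 61.7% of all 248 sequences. Most candidates seen in 1 library had too few reads to speak to its absence from the other. A count of 0 allows up to 3 reads, which is 0.409 RPM in MF and 0.940 in CMS. Each of the 8 candidates that reached 10 reads was present in both.

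**Figure D2:**
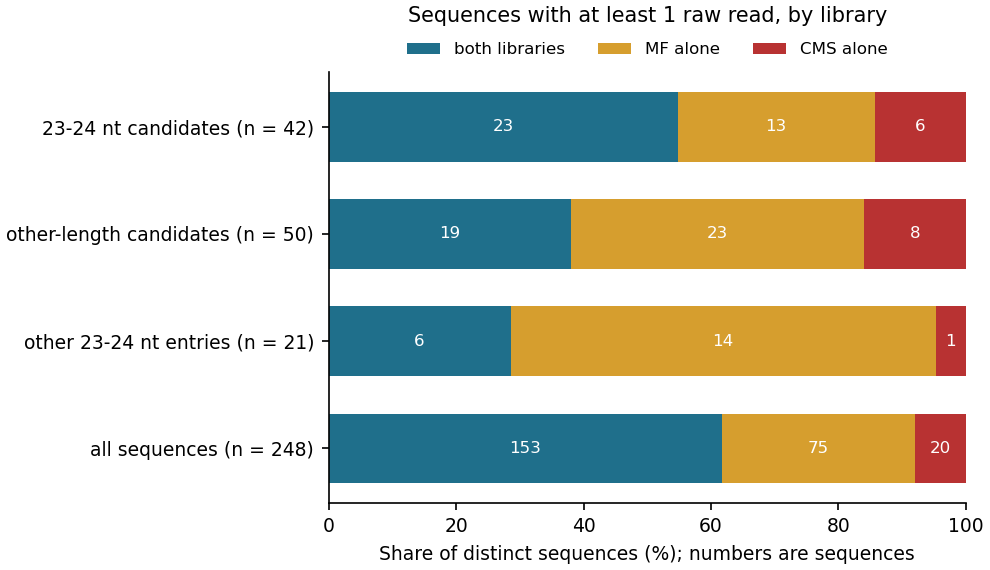
Share of distinct sequences (x axis, in percent) with at least 1 raw read in both libraries, in MF alone or in CMS alone, for 4 sets of sequences, with the number of sequences written in each bar. Of the candidates of 23 to 24 nt, 23 were in both libraries, 13 in MF alone and 6 in CMS alone.

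The candidates in 1 library alone were led by PC-5p-71, with 8 reads in MF and 0 in CMS. Its two-sided Fisher's exact p was 0.0156 unadjusted, which did not pass the rule below. With 3 reads in place of the CMS count, and the MF count taken as exact, its CMS over MF ratio was 0.467 with the authors' factors. The exact interval of its log2 ratio reached up to -0.46 with these factors and up to 0.43 per mappable read. Equal levels thus lay outside the interval with the authors' factors and inside it per mappable read. PC-5p-17, PC-5p-66 and PC-5p-70 each had 3 MF reads and 0 CMS reads, and PC-5p-87 had 0 and 2. The other 14 candidates of this kind were those with a single read.

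The study normalized each library by a factor, 0.896 for MF and 1.12 for CMS as recovered from the deposited values of its most abundant sequence. Here a sequence was called different when its Audic-Claverie probability (the chance of such a pair of counts at equal levels) was below 0.01 divided by the 248 sequences. The p of Fisher's exact test and that of a chi-squared test also had to be below 0.01. The paper states 0.01 as the threshold of these tests and mentions no such division. Over all 248 sequences 35 were called (14.1%), 13 higher in CMS (5.24%) and 22 lower (8.87%). Of the 42 candidates 1 was called, PC-3p-77, lower in CMS, and 0 were called higher. The rule can be passed only from 14 normalized reads upward, and 7 of the 42 candidates reached that total, as did 99 of all 248. At an unadjusted Fisher's exact p under 0.05 there were 2 candidates, PC-3p-77 and PC-5p-71. Of the 50 new candidates of other lengths 0 were called, and of the 21 other entries of 23 to 24 nt 4 were called, all lower in CMS.

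PC-3p-77 had 222 raw reads from MF and 84 from CMS, which became 199 and 94 after normalization. From these normalized values the paper also lists it as down in CMS. Its log2 CMS over MF ratio was -1.09, with an exact 95% interval from -1.47 to -0.72, so it was 2.12-fold lower in CMS. The Audic-Claverie probability was 1.10e-10 and the two-sided Fisher's exact p was 8.19e-10. The call and its direction depended on the scaling. Per mappable read the candidate stood at 30.3 RPM in MF and 26.3 in CMS, a log2 ratio of -0.20 with an interval from -0.58 to 0.17, and no candidate was called. Per raw read its log2 ratio was 0.42, higher in CMS, and the candidate called was PC-3p-5, higher in CMS. Against the total of listed miRNA reads the ratio was -1.61. Scaling by mappable reads in place of the authors' factors raised every log2 ratio by 0.88, and the median over the 86 sequences found in both libraries with 20 or more reads moved from -0.03 to 0.85.

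The other 7 candidates with at least 10 reads had intervals that held 0 with the authors' factors. PC-5p-55 had 59 MF reads and 33 CMS reads, a log2 ratio of -0.52 with an interval from -1.18 to 0.12. PC-3p-5 had 35 and 29 reads, a log2 ratio of 0.04 from -0.72 to 0.80, and per mappable read it was 0.93 from 0.17 to 1.68. PC-5p-1 had 28 and 21 reads, with a log2 ratio of -0.10 from -0.99 to 0.77. PC-5p-47 had 14 and 8 reads, at -0.49 from -1.95 to 0.86. PC-3p-25 had 15 and 6 reads, at -1.01 from -2.66 to 0.44. For these the intervals reach from a clear loss to a gain, so no direction can be read at this depth. PC-3p-46, with 11 and 7 reads, was at -0.34, and PC-5p-89, with 8 and 3 reads, was at -1.10, with the widest interval, from -3.65 to 0.96.

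Summed over the 42 candidates, the log2 CMS over MF ratio was -0.71 with an interval from -0.95 to -0.48 with the authors' factors. Without PC-3p-77 it was -0.43 from -0.74 to -0.12. The new candidates of other lengths, with 153 reads in MF and 101 in CMS, were at -0.28 from -0.66 to 0.09, and the other entries of 23 to 24 nt, with 1530 and 891 reads, were at -0.46 from -0.58 to -0.34. Within the new candidates of other lengths, those of 15 to 19 nt were at -2.33 from -4.31 to -0.79, those of 20 to 22 nt at 0.08 from -0.35 to 0.51, and those of 26 to 32 nt at -0.98 from -2.14 to 0.08. The candidates of 24 nt were at -0.70 and those of 23 nt at -0.82. Per mappable read the sum of the 42 candidates was 0.17 with an interval from -0.06 to 0.41, and per raw read it was 0.80, so its direction turned with the scaling. Without PC-3p-77 the sum stood at 32.2 RPM in MF and 44.2 RPM in CMS, so its direction turned too. The new candidates of other lengths, at 20.9 and 31.6 RPM, were also higher in CMS per mappable read. So were the other entries of 23 to 24 nt, at 208.7 and 279.1 RPM.

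**Figure D3:**
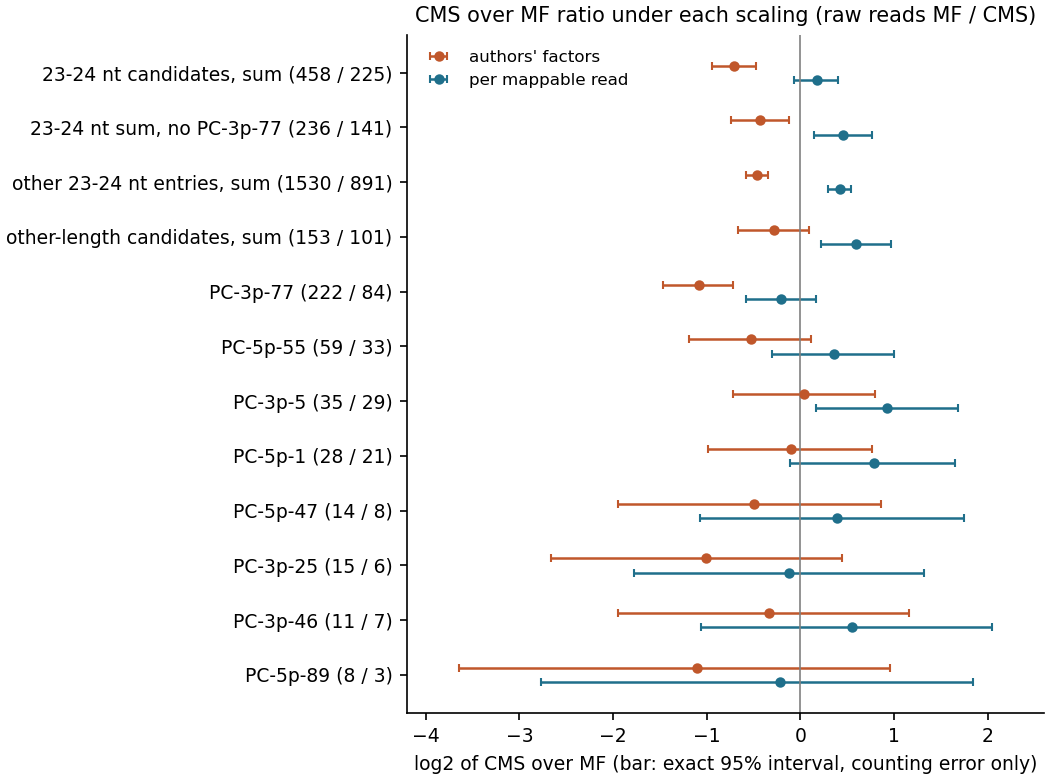
The log2 CMS over MF ratio (x axis) of the 8 candidates with at least 10 reads and of 4 sums, with raw reads in MF and CMS after each name, for the authors' factors and per mappable read. Points are ratios and bars exact 95% intervals of counting error. PC-3p-77 lies at -1.09 with the authors' factors and at -0.20 per mappable read, and the sum of all 42 moves from -0.71 to 0.17.

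At the 5′ end, 13 candidates began with A, 11 with G, 11 with T and 7 with C. The share beginning with A was 31.0%, against 24% of the new candidates of other lengths, 9.52% of the other entries of 23 to 24 nt and 18.5% of all sequences. A 5′ T, usual for miRNAs because AGO1 favours U there, stood in 26.2% of the candidates and in 41.1% of all sequences. By reads, G led with 58.9%, which came mostly from PC-3p-77, and A followed with 28.0%. Without PC-3p-77, A held 50.7% of the reads and G 25.5%. The median GC content was 50%, the same as over all sequences.

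The deposited hairpin table gave a place in the Arabidopsis genome (build TAIR10) for 40 of the 42 candidates, in 43 hairpins. Hairpin rows of PC-3p-8 and PC-5p-70 were not analysed here. Each deposited place is a window that spans a small RNA and 120 nt on either side, so the place of the small RNA was computed from the window, its strand and the hairpin letters. Where hairpins overlapped others in the tables, the letters matched these places base for base. By place, 34 candidates were nuclear, 2 lay in the chloroplast genome, 2 in the mitochondrial genome, and 2 at both a nuclear and a mitochondrial place. Chromosome 2 was the first nuclear place of 14 candidates, chromosome 1 that of 8 and chromosome 5 that of 7.

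Stability of the hairpins varied widely. The deposited folding energies ran from -174.3 to -9.9 kcal/mol. The MFEI, a folding energy set against length and GC content in which higher means more stable, had a median of 0.7 with a range from 0.5 to 1.5, and 12 of the 40 candidates had a hairpin of at least 1. For the new candidates of other lengths the median was 0.6, with 11 of 50 at or above 1. A candidate had a median of 18 bases paired in its hairpin, 75% of its length, against 71.0% for the other lengths, and 11 candidates had 20 or more paired. In 35 of the 40, the arm named in the label was the arm found in the deposited fold. Of the 5 others, PC-3p-10 and PC-3p-43 paired with bases downstream, and PC-5p-17 and PC-5p-40 with bases upstream. The last was PC-5p-16, at the start of its hairpin, whose 8 paired bases paired with each other and so lay on neither arm.

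**Figure D4:**
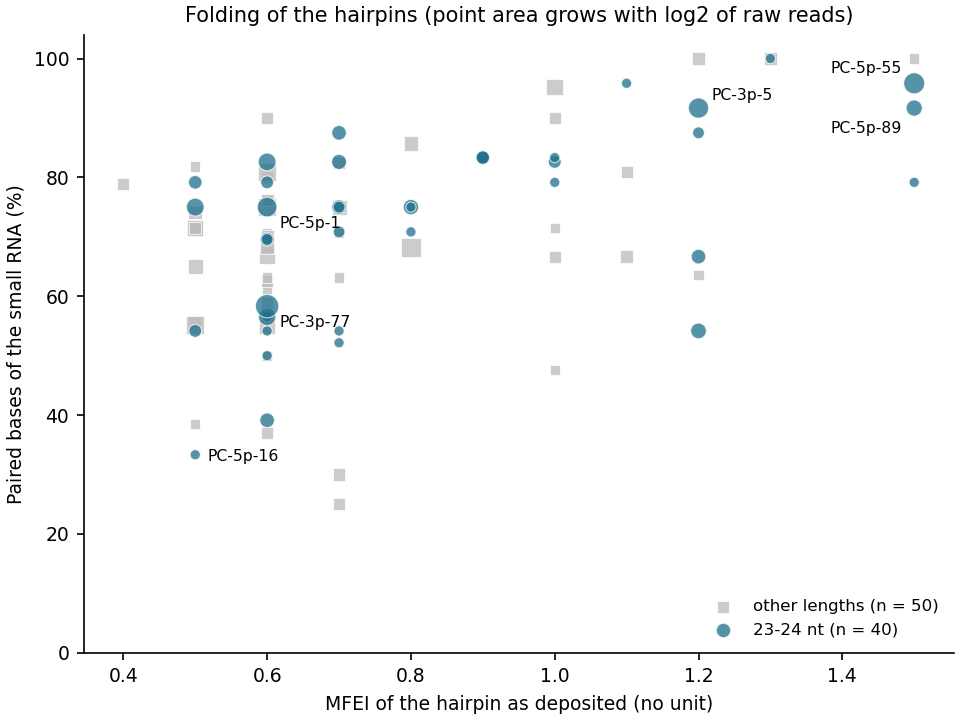
Folding of the hairpins of 40 candidates of 23 to 24 nt (circles) and 50 new candidates of other lengths (squares), with the deposited MFEI on the x axis and the share of paired bases of the small RNA in percent on the y axis. Point area grows with the log2 of raw reads over both libraries. PC-5p-55 stands at an MFEI of 1.5, and PC-3p-77, with the most reads, at 0.6.

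PC-5p-55 combined many reads with a stable hairpin. It lay on chromosome 5, minus strand, at chr5:9946655-9946678, and 23 of its 24 bases were paired in a hairpin of 140 nt with an MFEI of 1.5. Its hairpin is shown because the small RNA, in capitals, lies whole in 1 arm.
PC-5p-55 hairpin: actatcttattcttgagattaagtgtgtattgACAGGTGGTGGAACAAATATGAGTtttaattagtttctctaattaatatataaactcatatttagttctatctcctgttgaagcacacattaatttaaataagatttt
No sequence from the other arm of this hairpin was listed. PC-5p-89 had as stable a hairpin, with 22 bases paired and a folding energy of -141.5 kcal/mol in 169 nt on chromosome 1, and PC-3p-3 lay in a long hairpin of 219 nt on chromosome 5 with the lowest energy, -174.3 kcal/mol.

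PC-3p-77 differed from these. It lay near the start of chromosome 2, plus strand, at chr2:5006-5029, and 14 of its 24 bases were paired in a hairpin of 119 nt with an MFEI of 0.6. The start of Arabidopsis chromosome 2 carries the ribosomal RNA gene array of a nucleolus organizer, and no annotation of this place was used here. In the table of known miRNAs the hairpin of peu-MIR2916 lay 153 nt upstream on the same strand. Whether reads of ribosomal RNA have a part in its counts was not tested.
PC-3p-77 hairpin: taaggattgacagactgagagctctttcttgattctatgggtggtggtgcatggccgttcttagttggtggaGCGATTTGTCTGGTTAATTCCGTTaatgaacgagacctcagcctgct

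Several abundant candidates lay in hairpins with the letters of tRNA gene promoters. tRNA genes carry an A box and, downstream, a B box, which bind the polymerase III factor TFIIIC. Both strands were searched for the B box as GTTCNANNC, and for the A box as TNGNNNAGNNG with a B box starting 20 to 60 bases after it. A B box was found in 9 of the 43 hairpins (20.9%), in 4 of 33 other hairpins of new candidates (12.1%) and in 4 of 110 hairpins of known miRNAs (3.64%). Both boxes in order were found in 6 of the 43 hairpins (14%) and in 0 of the 33 and 0 of the 110. These motifs were chosen after the hairpins had been seen, the matches are a description, and hairpins of 1 sequence family count several times. The 5 candidates with both boxes were PC-5p-1, PC-3p-2, PC-3p-46, PC-5p-47 and PC-5p-63. A B box without an A box in this order lay in the hairpins of PC-3p-5 with PC-5p-6 and of PC-3p-39 with PC-5p-40.
PC-5p-1 and PC-3p-2 hairpin: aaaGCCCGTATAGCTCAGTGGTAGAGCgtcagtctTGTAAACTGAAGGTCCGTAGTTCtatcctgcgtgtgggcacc
PC-5p-47 and PC-3p-46 hairpin: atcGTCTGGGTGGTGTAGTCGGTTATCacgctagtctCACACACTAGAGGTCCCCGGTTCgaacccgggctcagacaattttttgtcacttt
Capitals mark the small RNAs. In the first hairpin, on chromosome 2, PC-5p-1 held 28 MF reads and 21 CMS reads, while PC-3p-2 held 5 and 1. The second stands for 4 near-identical hairpins on chromosomes 2, 4 and 5 that share PC-5p-47, and PC-5p-63, with 4 and 1 reads, was placed in a related hairpin on chromosome 5. PC-3p-46 is the last 23 bases of PC-3p-45, a new candidate of 29 nt with 13 MF reads and 8 CMS reads, beside the 11 and 7 of PC-3p-46 and the 14 and 8 of PC-5p-47. Leaving out every candidate with a B box in its hairpin, PC-3p-5 among them, gave a summed log2 ratio of -0.89, against -0.71 with them.

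Both arms of a hairpin were listed for 24 of the 43 hairpins, which came to 19 distinct pairs of sequences involving 22 candidates. In 5 of these pairs both sequences were of 23 to 24 nt. They were PC-5p-1 with PC-3p-2, PC-5p-6 with PC-3p-5, PC-5p-40 with PC-3p-39, PC-5p-47 with PC-3p-46, and PC-5p-49 with PC-3p-50. A Dicer cut leaves both strands of the duplex paired, with 3′ overhangs of 2 nt. In the deposited folds the sequences were paired with each other over 10 or more bases in 5 of the 24 hairpins and over no base in 12, and no 3′ overhang of 2 nt was found at the ends that could be measured. Ends could be measured only in the 5 hairpins with 10 or more such paired bases. Even there, the end of the PC-5p-26 and PC-3p-25 duplex away from the loop could not be measured. PC-5p-6 and PC-3p-5, with 3 and 3 against 35 and 29 reads in MF and CMS, did not pair with each other at any base, although their hairpin, on chromosome 2 with an MFEI of 1.2, paired each with other bases.

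PC-5p-38, a candidate of 23 nt, and PC-3p-37, of 20 nt, were arms of 1 hairpin with 18 bases paired between them, blunt ends on the open side and an overhang of 1 nt at the loop. Their hairpin lay on chromosome 4, minus strand, from 15074901 to 15075074, and all its 174 bases were the reverse complement of the ath-MIR156b hairpin on the plus strand, from 15074899 to 15075081. miR156 restrains the SPL transcription factors that drive the change from juvenile to adult growth and act in flowers. PC-5p-38 overlapped the sequenced 3′ product, ath-MIR156b-p3, by 18 nt, and PC-3p-37 overlapped miR156b itself by 17 nt.
PC-5p-38: cAGAAAGAgaggtgagcacgcac
PC-3p-37: cATGTGCTcactctcttctg
ath-MIR156b-p3: tgctcacctctctttctgtcagt
PC-5p-38 had 1 read in MF and 2 in CMS and PC-3p-37 had 1 and 1. On the plus strand ath-MIR156b-p3 had 419 and 358 reads, and the miR156 sequence, shared by several loci, had 20 and 4. Reads of the minus strand were thus few in both libraries.

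**Figure D5:**
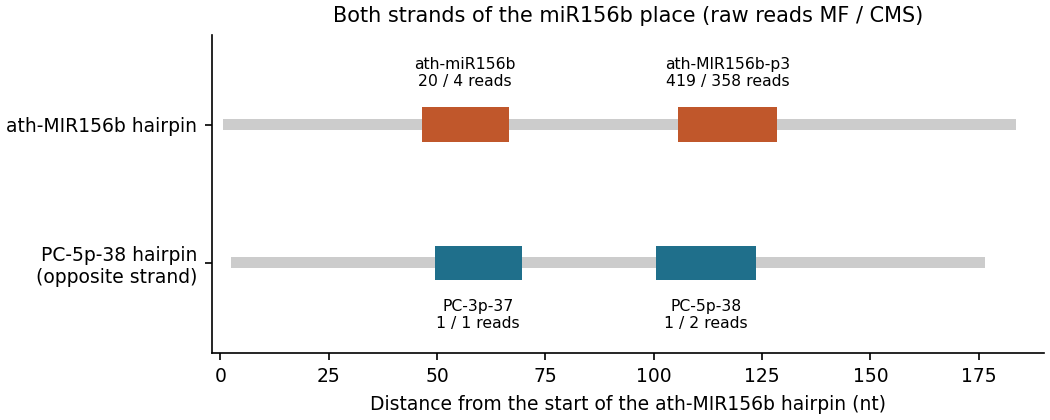
Map of the ath-MIR156b hairpin (upper bar) and of the hairpin of PC-5p-38 and PC-3p-37 on the opposite strand (lower bar), with the distance from the start of the ath-MIR156b hairpin in nt on the x axis. Boxes are sequenced small RNAs with raw reads in MF and CMS. PC-5p-38, with 1 and 2 reads, overlaps ath-MIR156b-p3, with 419 and 358, by 18 nt. PC-3p-37, with 1 and 1 reads, overlaps ath-miR156b, with 20 and 4, by 17 nt.

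Related sequences lay in hairpins with long paired arms. PC-3p-50 lay in a hairpin on chromosome 2 that was listed on both strands over the same 123 nt, from 752514 to 752636. The other arm was listed as PC-5p-48, of 21 nt, on the plus strand and as PC-5p-49 on the minus strand. The letters of PC-5p-48 also stand whole in the minus-strand hairpin, so its reads cannot be assigned to either strand alone. The Arabidopsis letters at the place of PC-3p-50 were paired over all 24 bases in both folds, and with all 21 bases of PC-5p-48 on the plus strand. The sequenced PC-3p-50 differs from these letters at 1 base, and its longest run complementary to PC-5p-48 was 15 bases. PC-3p-3, from the long hairpin on chromosome 5, shared a run of 17 bases with PC-3p-50 and of 18 bases with the reverse complement of PC-5p-48.
PC-3p-3: aGGATGAGgtcttgggttcgagga
PC-3p-50: gGGTGTGGtcttgggttcgaggaa
PC-5p-48: cTCGAACCcaagacctcaccc
PC-5p-49: aCCTCACCctttaacaaccttccc
Reads were few, 6 in MF and 3 in CMS for PC-5p-49, 2 and 1 for PC-5p-48, 1 and 0 for PC-3p-50, and 0 and 1 for PC-3p-3 as for PC-5p-4, of 22 nt, on its other arm. No ratio was distinguishable from equal levels at this depth.

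The remaining hairpins with both arms listed rested on few reads. PC-3p-10 had 2 MF reads and 4 CMS reads, and PC-5p-9, of 32 nt on its other arm, had 2 and 0. PC-3p-21 had 1 and 0 reads, as had its other arm PC-5p-22 of 17 nt, and it shared a run of 12 bases with PC-5p-35. In 23 of the 24 hairpins both sequences were seen in the same library, and in 12 both sequences were seen in both. The exception was PC-5p-35, with 1 and 0 reads, beside PC-3p-36, of 20 nt, with 0 and 2.

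Organelle places held few reads apart from 1 candidate. In the mitochondrial genome, PC-3p-25 had 15 MF reads and 6 CMS reads, PC-5p-17 had 3 and 0, and their hairpins lay 1124 nt apart. In the chloroplast genome, PC-3p-39 had 3 MF reads and 1 CMS read, PC-5p-40 had 2 and 1, from a hairpin at 2 places. PC-5p-42, with 4 and 2 reads, and PC-3p-43, with 1 and 1, lay both on chromosome 2 and in the mitochondrial genome with identical hairpins. Chromosome 2 of Arabidopsis carries a large insertion of mitochondrial DNA, and reads from the nuclear and the mitochondrial place cannot be told apart. All 6 intervals of the CMS over MF ratio held equal levels with the authors' factors. On their other arms, PC-5p-26, of 21 nt, had 4 and 4 reads, PC-3p-18, of 27 nt, had 2 and 0, PC-3p-41, of 20 nt, had 2 and 1, and PC-5p-44, of 22 nt, had 0 and 1.

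The reads of B. juncea were placed on the genome of another species, and 32 of the 40 candidates matched their place exactly. In 4, PC-3p-21, PC-3p-50, PC-5p-52 and PC-3p-62, 1 base differed. In the other 4 the differences were many and lay at the 3′ end. These are printed with the differing bases in capitals, each above its marked Arabidopsis stretch.
PC-3p-11: tagCaggctgacgcggCCAGgCT
Arabidopsis, chromosome 5: tagGaggctgacgcggATGAgTA
PC-5p-16: ctGcccaatcttggttAATgTCTT
Arabidopsis, chromosome 4: ctTcccaatcttggttTTGgATAA
PC-3p-24: tatccgctttaCctctaACgCAAC
Arabidopsis, chromosome 5: tatccgctttaTctctaGAgGGTA
PC-5p-35: ttcggGtcgatcggttCGGTTCGC
Arabidopsis, chromosome 1: ttcggTtcgatcggttAATGGGCT
The 4 differed from their places at 7 to 9 bases, with at most 1 in the first 11 bases and 6 to 8 in the last 8. Each had 1 read, in MF, and each belonged to a hairpin with both arms listed. The other arms were PC-5p-12, PC-3p-15, PC-5p-23 and PC-3p-36, of which the first 3 also had 1 read in MF and none in CMS. For all 8 candidates with a difference, the pairing given is that of the Arabidopsis letters.

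Degradome reads mark the 5′ ends of RNA fragments, among them those left when a miRNA guides the slicing of its target. Sites with such reads were listed for 1 of the 42 candidates (2.38%). This compares with 12 of 50 new candidates of other lengths (24%) and 0 of 21 other entries of 23 to 24 nt. Among the other lengths, 7 of the 13 candidates of 15 to 19 nt and 5 of the 28 of 20 to 22 nt had a listed target. The candidate was PC-5p-52, which itself had 0 reads in MF and 1 in CMS.
PC-5p-52: aTCTCTCTctctctctcttaccgg
Of its 24 bases, 16 were 8 units of a dinucleotide repeat. Its targets came to 7 genes, 5 listed in MF and 3 in CMS, with 1 in both. CleaveLand assigned each site by a cut opposite base 10 of the candidate, so this position was set by the method.

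The sites are ranked in categories from 0, where the cut is the single highest peak of the transcript, to 4, a single read. AT5G18310, which codes for a protein of unknown function, was the only category 0 target, with 4 reads in MF, or 0.518 reads per 1000000 mapped reads, and a CleaveLand p of 0.0786. The other 6 genes were of category 4 with 1 read each. These 6 lie outside the rule for named targets and were named after their values were seen. In MF they were AT3G57870, a SUMO-conjugating enzyme, AT2G45960, the water channel PIP1B, AT3G09980, of unknown function, and AT3G03340, related to LUC7. In CMS they were AT3G03340, the RING protein gene RFI2 (AT2G47700) and the tRNA isopentenyltransferase IPT2 (AT2G27760). No CleaveLand p of these was below 0.05. AT3G03340, with 1 read in each library, was the only site that could be compared, with an exact binomial p of 1 (adjusted p of 1 over the 218 sites listed in both libraries, of which 54, or 24.8%, had an adjusted p under 0.05). At 1 read a site, a difference between the libraries was not detectable. All reads at the sites of PC-5p-52 are raw counts here. The paper also prints these sites with a value headed Rep Norm reads, which was lower than the raw count for every gene but AT3G57870.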

How the data were processed

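The authors removed adapters, length outliers and junk reads from the small RNA, predicted new candidates by folding flanking sequence (TAIR10 per the labels) with MIREAP and Mfold, and assigned degradome reads on Arabidopsis cDNA to targets with CleaveLand. Their deposited tables give a count of raw reads, a normalized score in whole numbers, hairpin GC content in percent, folding energies, and for each target site a count of reads, a category and a p-value. Hairpin rows with no name were taken to continue the sequence named above on the same arm. The 288 entries with values came to 248 distinct sequences. Members, lists and motifs were chosen with earlier results of these data known. The rule names candidates with at least 10 reads, with the other arm listed, in an organelle genome, or with a target, and targets of category 0 to 2. PC-3p-8, PC-5p-63, PC-5p-66, PC-5p-70, PC-5p-71, PC-5p-87 and PC-3p-62 fall outside it and were named after their values were seen.

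For the calls, the 3 tests named in the study's methods were run over all sequences on the normalized values, with 1000000 as the total of each library. For the ratios, raw counts were multiplied by the recovered factors and given Clopper-Pearson 95% intervals, conditional on both counts, and a count of 0 was replaced by 3 counts as a bound. Both procedures had been tested on simulated data. The libraries held 11845753 (MF) and 3339182 (CMS) raw reads, and the degradome libraries 7717843 and 4967302 mapped reads, against which cleavage reads were compared by an exact binomial test with Benjamini-Hochberg adjustment. Alternatives were 4 other scalings, another correction, entries in place of sequences, length limits and read minimums. Scripts ran under Python 3.11.15 with scipy 1.17.1, numpy 2.4.6 and matplotlib 3.10.9. The authors' log2 column was not used.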

Additional observations from a re-analysis of the deposited data

How the results depend on the processing

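The number of called candidates, 1 as reported, was 0 with totals of mappable reads. It was 1 with raw reads, but of PC-3p-5 and higher in CMS, and 1, again PC-3p-77, with both totals of miRNA reads and under every other correction, minimum and length limit tried. With raw reads PC-3p-77 itself had a log2 ratio of 0.42. The summed log2 ratio, -0.71 as reported, was 0.17 per mappable read, 0.80 per raw read and -1.23 against total miRNA reads. Without PC-3p-77 it was -0.43 with the authors' factors, while RPM was higher in CMS. For single candidates with at least 10 reads, 20 of 32 ratios under other scalings lay within the reported interval. Counts that follow from a stricter limit were 8 candidates in both libraries, against 23, at 10 reads or more, 5 pairs of arms, against 19, with both of 23 to 24 nt, and of 7 target genes 1 without category 4 and 0 at a CleaveLand p under 0.05. No paired analysis was possible because each line had 1 library per assay, and for the same reason no library could be left out. Leaving out hairpins with a B box was chosen after seeing the data. With a median of 3 reads a candidate, depth limits nearly all ratios.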

Other observations

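The study describes, with no threshold given, that reads of low abundance were taken out before new candidates were sought. Of the 42 candidates of 23 to 24 nt, 14 had a single read over both libraries, as had 16 of the 50 new candidates of other lengths. For 4 of the 42 candidates the deposited normalized value was not the raw count times the recovered factor rounded to a whole number. Candidates with both arms listed were 22, with 139 reads in MF and 90 in CMS, and those with 1 arm listed were 18, with 316 and 134. Of the latter reads, PC-3p-77 alone held 222 and 84. The median was 3.5 reads a candidate with both arms listed and 2 with 1 arm listed.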
